A study of Homo sapiens with 6 samples.

Results

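Heat shock proteins and J-domain cochaperones were followed in RKO cells, an established line from a human colon carcinoma, with and without GSK3B. The members were picked by symbol alone: HSPA, HSPB, HSP90, DNAJA, DNAJB and DNAJC genes, HSPH1, HSPD1, HSPE1, CHORDC1, AHSA1, HSF1, HSF2 and the numbered BAG genes. The count tables hold 28278 symbols. The rule matched 96 of them, and 5 pseudogenes (DNAJA1P5, DNAJB3, HSP90AB4P, HSP90B2P and HSPA7) were left out, which leaves 91 members. They comprise 84 protein-coding genes, 2 readthrough symbols and 5 antisense or divergent transcripts. Polyadenylated RNA was sequenced in 3 libraries of GSK3B knockout RKO cells and 3 libraries of RKO cells with wild-type GSK3B, to find which transcripts differ when this serine/threonine kinase is lost. No treatment, heat shock or time course is given for either group. How the kinase was knocked out, whether the cells are 1 clone or a pool, and whether libraries stem from separate cultures is not in the labels, so p-values reflect the spread of these libraries alone, and that spread may be technical.

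Heat shock proteins hold other proteins in a foldable state. HSP70 chaperones bind and release exposed hydrophobic stretches in a cycle driven by ATP. J-domain proteins of the DNAJA, DNAJB and DNAJC classes deliver clients and start ATP hydrolysis, and HSP110 proteins and BAG proteins release the nucleotide so that the cycle can restart. HSP90 takes over partly folded clients such as kinases with the help of cochaperones, and the HSP60 and HSP10 proteins form the folding chamber of the mitochondrial matrix. Several cytosolic and mitochondrial members, among them HSPA1A, HSPH1, DNAJB1, HSPD1 and HSPE1, are known targets of HSF1, a transcription factor that binds heat shock elements made of inverted GAA and TTC units, whereas HSPA5 and HSP90B1 of the endoplasmic reticulum (ER) are known targets of the unfolded protein response. HSF1 is among the many proteins that GSK3 kinases are known to phosphorylate.

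Promoters of 5 members are shown as a description. HSPH1, CHORDC1 and HSPA8 were the 3 members with the smallest p-values between the groups. HSPA1A is the classic heat-inducible HSP70, and HSPA5 is an ER member of the same family. Each line holds the 250 bases before the RefSeq start on GRCh38.p14, read 5′ to 3′ on the strand of the gene. Capitals mark motifs found on either strand. They are the 2-unit motifs GAANNTTC and TTCNNGAA, where N is any base, the 3-unit heat shock element, in which GAA, TTC and GAA units (or TTC, GAA and TTC) are each separated by any 2 bases, and the ER stress element, CCAAT and CCACG with any 9 bases between them. Every 3-unit match contains both 2-unit motifs. The windows are chr13:31162389-31162638 on the minus strand for HSPH1, chr11:90223050-90223299 on the minus strand for CHORDC1, chr11:123062137-123062386 on the minus strand for HSPA8, chr6:31815293-31815542 on the plus strand for HSPA1A and chr9:125241344-125241593 on the minus strand for HSPA5. The GENCODE 29 models of CHORDC1, HSPA8 and HSPA1A begin upstream of these RefSeq starts.
HSPH1: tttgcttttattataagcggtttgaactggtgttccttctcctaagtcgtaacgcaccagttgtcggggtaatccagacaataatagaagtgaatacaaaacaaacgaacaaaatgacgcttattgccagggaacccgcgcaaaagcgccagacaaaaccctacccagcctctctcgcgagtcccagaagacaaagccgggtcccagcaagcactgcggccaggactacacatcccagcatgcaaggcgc
CHORDC1: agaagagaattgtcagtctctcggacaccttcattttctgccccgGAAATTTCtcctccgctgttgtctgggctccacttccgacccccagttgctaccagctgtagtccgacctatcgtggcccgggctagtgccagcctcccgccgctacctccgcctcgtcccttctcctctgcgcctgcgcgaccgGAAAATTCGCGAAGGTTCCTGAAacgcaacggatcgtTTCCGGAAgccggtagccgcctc
HSPA8: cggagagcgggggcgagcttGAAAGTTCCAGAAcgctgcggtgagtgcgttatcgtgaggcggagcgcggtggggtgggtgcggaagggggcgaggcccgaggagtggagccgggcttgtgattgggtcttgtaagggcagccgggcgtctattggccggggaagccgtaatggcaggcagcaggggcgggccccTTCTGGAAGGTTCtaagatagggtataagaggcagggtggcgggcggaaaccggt
HSPA1A: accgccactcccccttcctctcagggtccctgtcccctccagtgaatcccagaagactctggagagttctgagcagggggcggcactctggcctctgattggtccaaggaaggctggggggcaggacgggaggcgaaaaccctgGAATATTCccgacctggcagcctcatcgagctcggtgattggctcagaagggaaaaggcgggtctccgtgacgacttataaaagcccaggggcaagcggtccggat
HSPA5: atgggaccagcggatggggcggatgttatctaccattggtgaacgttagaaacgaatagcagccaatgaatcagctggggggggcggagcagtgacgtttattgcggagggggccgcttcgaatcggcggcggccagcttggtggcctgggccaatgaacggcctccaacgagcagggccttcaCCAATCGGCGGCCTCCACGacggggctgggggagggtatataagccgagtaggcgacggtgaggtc

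The CHORDC1 window had 3 overlapping 3-unit matches, the farthest beginning 60 bases before the start, and HSPA8 had 2, which begin 230 and 55 bases before it. HSPA1A had a single 2-unit match 106 bases before its start, and HSPA5 had the ER stress element. HSPH1 had no match, which says only that these letters are not in its window. Promoter windows were found for 74 of the coding members among 27305 genes. The 3-unit element stood in the windows of 7 members, CHORDC1, DNAJB6, HSP90AA1, HSP90AB1, HSPA6, HSPA8 and HSPD1, which is 9.46% of them, beside 0.557% of all genes. GAANNTTC stood in 24.3% of the members' windows beside 7.05% of all genes, and TTCNNGAA in 16.2% beside 8.12%. The ER stress element stood in the windows of HSP90B1 and HSPA5, 2.70% of the members, beside 0.0916% of all genes. Members had 1.34 windows per gene and all genes 1.29. A match is a description of letters, not evidence of binding.

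Library totals ran from 32379369 to 33558362 counts, and levels below are CPM, the counts scaled to a common library total after TMM normalization. GSK3B, the targeted gene, had 46.0, 47.5 and 47.1 CPM in knockout libraries, against 99.0, 97.6 and 91.4 CPM in wild-type libraries. The groups did not overlap, and the knockout mean was 48.8% of the wild-type mean (edgeR log2 fold change -1.04 ± 0.05 SE, adjusted p = 1.88e-12; exact permutation p = 0.1, the smallest that 3 against 3 libraries allow). Among 8 epithelial markers, KRT8, KRT18, CDX2 and VIL1 had counts in every library, CDH1 was listed at 0, and KRT19 and KRT20 were near 0, with a summed level of 138.8 to 143.7 CPM in knockout and 136.1 to 142.7 CPM in wild-type libraries. EPCAM, the last of the 8, had 1.04 to 1.11 CPM in knockout and 2.40 to 4.28 CPM in wild-type libraries. Summed fibroblast markers reached 0.155 CPM in knockout libraries and 2.22 CPM in wild-type library 3, and leukocyte markers were at 0 in knockout libraries and at most 0.425 CPM in wild-type libraries; their part in the results below was not tested.

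Wild-type library 3 stood apart. Its counts differed from those of wild-type libraries 1 and 2 by a chi-square per degree of freedom of 9.30 and 5.80, where the other pairs within a group gave 3.11 to 4.41. Against the mean of the other wild-type libraries its log2 level was lower by a median of -0.12 in the 3454 genes with the least transcript GC (up to 42.2%) and higher by 0.12 in the 3454 with the most (from 56.7%). Over the same genes the median log2 fold change of knockout over wild type was 0.07 and -0.07. Calls that changed without this library or with a correction for GC content are named below.

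The chaperone genes took a larger share of the counts in knockout cells. In such bulk RNA, fewer cells that express a gene and less of its RNA per cell cannot be told apart. They took 2.07%, 2.05% and 2.07% of all counts in knockout libraries, against 1.98%, 1.93% and 1.86% in wild-type libraries. Every knockout library was above every wild-type library, and wild-type library 3 was the lowest. HSP90AB1, HSP90AA1, HSPA8 and HSPA5 alone took 50.3%, 49.97% and 50.4% of the summed CPM of the members in knockout libraries, against 49.5%, 49.4% and 48.9% in wild-type libraries.

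Of the 91 members, 74 had enough counts to be tested among 14409 genes. By edgeR's quasi-likelihood test at an adjusted p under 0.05, 13 members rose in knockout cells, 5 fell and 56 did not pass. The same test called 13.5% of all tested genes, 6.36% as higher and 7.18% as lower. The groups did not overlap for 24 members with higher and 11 with lower knockout values, beside 15.4% and 15.9% of all tested genes. The median log2 fold change over the tested members was 0.05, against 0.00 over all tested genes, whose 5th to 95th percentile ran from -0.45 to 0.28, so most changes were small. DESeq2 called 14 members higher and 5 lower, beside 6.23% and 6.66% of all genes, and limma-voom 13 higher and 5 lower, beside 6.33% and 6.87%. Without wild-type library 3 the edgeR test called 12 members higher and 4 lower, beside 7.02% and 7.03% of all genes; DNAJB14, DNAJC2, DNAJC4, DNAJC9 and HSPBAP1 were lost, BAG2 and DNAJA3 were gained as higher and DNAJC17 as lower. Scaling by library size alone gave 649 genes higher and 1229 lower, where TMM gave 917 and 1034, and 15 members, 14 of them among the 18. Leaving out other libraries gave 9 to 22 members higher, the 22 without wild-type library 1 (where BAG2, DNAJC10, DNAJC13, HSP90AA1, HSP90B1, HSPA14, HSPA4, HSPA4L and HSPD1 were gained as higher and HSPB1 as lower), and 1 to 4 lower, the 1 without knockout library 1 or without knockout library 2.

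**Figure D1:**
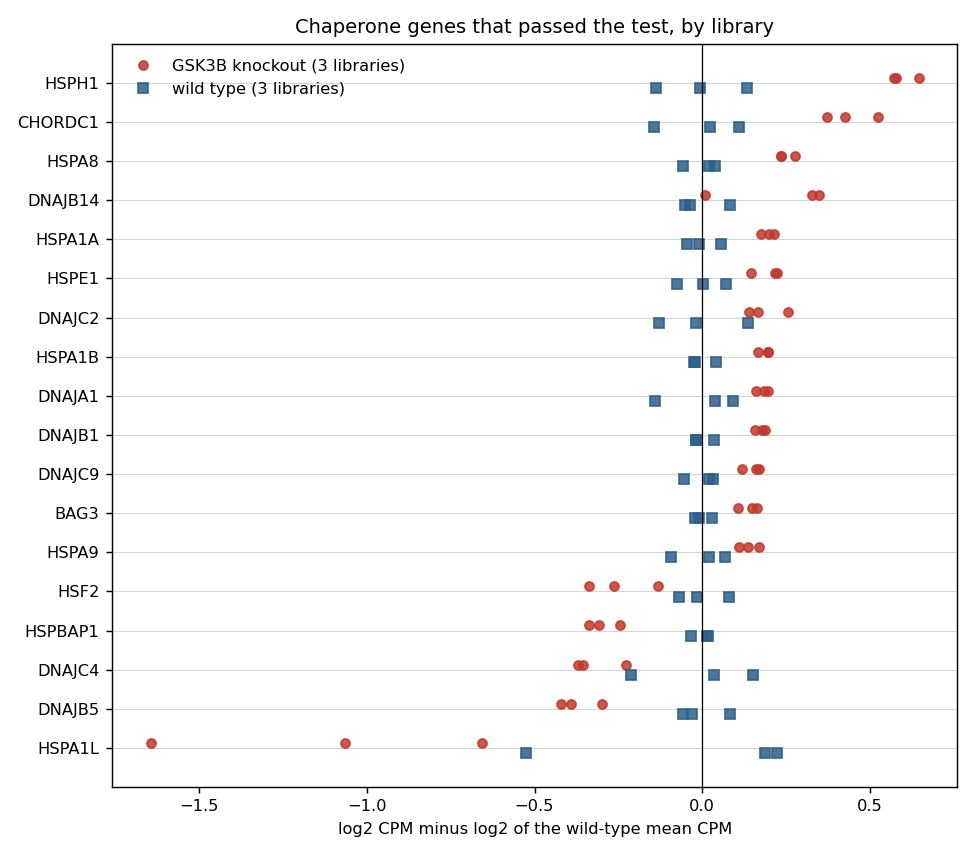
Levels of the 18 members that passed the test, 1 row per gene, as log2 CPM minus the log2 of the gene's wild-type mean. Circles are the 3 knockout libraries and squares the 3 wild-type libraries. HSPH1 and CHORDC1 lie farthest to the right, HSPA1L farthest to the left, and only DNAJB14 has overlapping groups.

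The plot of these 18 genes by library shows that HSPH1 and CHORDC1 stood apart from the other risen members, which moved by 0.14 to 0.25 on the log2 scale. Of the 18 calls 9, those of HSPH1, HSPA8, CHORDC1, HSPA1B, HSPA1A, DNAJB5, DNAJB1, HSPE1 and DNAJA1, were made again in each of the 6 fits that left out 1 library.

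HSP110 proteins are the nucleotide exchange factors of HSP70, and HSPH1 rose the most of all members. HSPH1 (chromosome 13, 31134974 to 31162388, minus strand; GENCODE 29 on hg38) had 133, 126 and 127 CPM in knockout libraries, against 93.1, 84.4 and 77.1 CPM in wild-type libraries. All knockout libraries were higher than all wild-type libraries, and wild-type library 3 was the lowest of the 6. The rise was 1.51-fold (edgeR log2 fold change 0.60 ± 0.05 SE, adjusted p = 3.91e-08), and it rested on 4058 to 4366 counts in knockout and 2568 to 3066 counts in wild-type libraries. With the GC correction the log2 fold change was 0.53. The other HSP110 genes did not pass: HSPA4 averaged 337 ± 3.11 CPM in knockout and 316 ± 20.6 CPM in wild-type libraries (SD, n = 3 each), and HSPA4L averaged 120 ± 1.33 CPM in knockout and 112 ± 10.8 CPM in wild-type libraries. Both overlapped between the groups. Without wild-type library 1 both passed (edgeR log2 fold change 0.13, adjusted p = 0.0149 for HSPA4, and 0.15, adjusted p = 0.0260 for HSPA4L), and without wild-type library 3 the log2 fold changes were 0.04 and 0.02 and did not pass.

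Among cytosolic HSP70 genes, HSPA8, HSPA1A and HSPA1B rose and HSPA1L fell. HSPA8, the constitutive HSC70 (chromosome 11, 123057489 to 123063230, minus strand), had 2432, 2432 and 2502 CPM in knockout libraries, against 2094, 2120 and 1984 CPM in wild-type libraries. The groups were clearly separate, and the rise was 1.19-fold (edgeR log2 fold change 0.25 ± 0.03 SE, adjusted p = 5.34e-06). HSPA1B, a heat-inducible HSP70 (chromosome 6, 31827735 to 31830255, plus strand), had 744, 759 and 759 CPM in knockout libraries, against 651, 653 and 682 CPM in wild-type libraries. HSPA1A, its neighbour copy (chromosome 6, 31815464 to 31817946, plus strand), had 484, 491 and 497 CPM in knockout libraries, against 425, 414 and 445 CPM in wild-type libraries. Neither overlapped between the groups, and wild-type library 3 was here the highest wild-type library rather than the lowest. The edgeR log2 fold change was 0.19 ± 0.03 (SE) for HSPA1B, with adjusted p = 0.000301, and 0.20 ± 0.03 for HSPA1A, with adjusted p = 0.000387. The longest open reading frames of these genes differ at 4 of 1926 bases (99.8% identity), so reads can be shared and the split of counts between them is uncertain; their summed counts gave an edgeR log2 fold change of 0.19 with adjusted p = 0.000196, and over all alternatives HSPA1A had an adjusted p of at most 0.0110.

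HSPA1L, the testis-expressed HSP70 encoded head to head with HSPA1A (chromosome 6, 31809619 to 31815065, minus strand), went the other way at a very low level. It had 0.883, 0.591 and 1.17 CPM in knockout libraries, against 2.16, 1.28 and 2.10 CPM in wild-type libraries, from 19 to 39 counts in knockout and 42 to 71 counts in wild-type libraries. The highest knockout library lay just below the lowest wild-type library, and the edgeR log2 fold change was -1.06 ± 0.29 (SE), with adjusted p = 0.0165. Its longest open reading frame is 81.4% identical to that of HSPA1A. The call was lost without knockout library 1 or without knockout library 2, and over the fits that left out 1 library the log2 fold change ran from -1.32 to -0.85, with adjusted p up to 0.107 by edgeR. HSPA6, another inducible HSP70, averaged 0.654 CPM in knockout and 0.787 CPM in wild-type libraries and did not pass. HSPA14, a ribosome-bound HSP70, averaged 125 CPM in knockout and 114 CPM in wild-type libraries without overlap, with an edgeR adjusted p of 0.0613, and passed with the GC correction and without wild-type library 1.

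HSP90 gave no call among its 3 tested genes by edgeR, where 1 was higher at an unadjusted p under 0.05. DESeq2 and limma-voom each called 1 as higher, beside 6.23% and 6.33% of all tested genes. That gene was HSP90AA1, the inducible cytosolic form, which had 3053, 2945 and 2926 CPM in knockout libraries, against 2770, 2486 and 2248 CPM in wild-type libraries. All knockout libraries were higher, and the wild-type libraries were widely spread, with library 3 the lowest. The edgeR log2 fold change was 0.25 ± 0.07 (SE), with adjusted p = 0.0611. It passed with DESeq2 (adjusted p = 0.0410), with limma-voom (adjusted p = 0.000505), with edgeR without robust estimation (adjusted p = 0.000860) and when knockout library 1, 2 or 3 or wild-type library 1 was left out, and not without wild-type library 2 (0.25, adjusted p = 0.0936 by edgeR) or 3 (0.18, adjusted p = 0.0573 by edgeR). With the GC correction it did not pass either (edgeR log2 fold change 0.24, adjusted p = 0.114), nor with RLE or library size scaling. It passed with the replicate block, with that block and the GC correction together, and with both other filters. Over all alternatives run, its adjusted p ranged between 8.3e-09 and 0.114. HSP90AB1, the constitutive form, had 3087, 3046 and 3086 CPM in knockout libraries, against 2992, 3004 and 2971 CPM in wild-type libraries. These groups did not overlap either, but the difference was far smaller, with an edgeR log2 fold change of 0.04 ± 0.03 (SE) and adjusted p = 0.365.

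The HSP90 cochaperone CHORDC1 rose, and AHSA1 did not pass. CHORDC1, a zinc-binding HSP90 partner also called morgana (chromosome 11, 90201160 to 90223364, minus strand), had 97.0, 104 and 93.5 CPM in knockout libraries, against 77.8, 73.3 and 65.3 CPM in wild-type libraries. The groups were separate and wild-type library 3 was again the lowest. The rise was 1.36-fold (edgeR log2 fold change 0.44 ± 0.06 SE, adjusted p = 9.27e-06), and 0.33 on the log2 scale with the GC correction. AHSA1, which stimulates the ATPase of HSP90, averaged 234 ± 3.17 CPM in knockout and 225 ± 6.73 CPM in wild-type libraries (SD, n = 3 each), an edgeR log2 fold change of 0.05 with adjusted p = 0.374.

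J-domain genes numbered 39 among the tested members, of which 5 rose, 2 fell and 32 did not pass. Beside these counts, edgeR called 6.36% of all tested genes higher and 7.18% lower. The median log2 fold change of the 39 was 0.05, and 0.003 with the GC correction. The risen ones include DNAJB1 and DNAJA1, cytosolic partners of HSPA8 and HSPA1A. DNAJA2, DNAJA4 and DNAJB4, also cytosolic, did not pass. DNAJA2 averaged 103 CPM in knockout and 98.6 CPM in wild-type libraries with overlap, with an edgeR adjusted p of 0.421. DNAJB1, an HSP40 induced by heat (chromosome 19, 14514770 to 14529770, minus strand), had 307, 311 and 313 CPM in knockout libraries, against 271, 271 and 282 CPM in wild-type libraries. Its groups were separate, with a narrow spread in both, and the edgeR log2 fold change was 0.18 ± 0.03 (SE), with adjusted p = 0.00141. The exons of DNAJB1 overlap TECR and MIR639 on the opposite strand, and the strand setting of the counts is not given. DNAJA1, the abundant class A partner (chromosome 9, 33025211 to 33039907, plus strand), had 420, 413 and 423 CPM in knockout libraries, against 393, 379 and 334 CPM in wild-type libraries. Wild-type library 3 was the lowest by far, and the edgeR log2 fold change was 0.18 ± 0.04 (SE), with adjusted p = 0.00712; over the fits that left out 1 library it ran from 0.12 to 0.23, lowest without wild-type library 3.

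DNAJB5 fell. It encodes a class B partner of HSP70 that in rodent heart is known to bind the histone deacetylase HDAC4 (chromosome 9, 34989641 to 34998900, plus strand) and had 19.7, 19.3 and 21.1 CPM in knockout libraries, against 24.9, 27.4 and 25.4 CPM in wild-type libraries. The groups did not overlap, and the edgeR log2 fold change was -0.37 ± 0.07 (SE), with adjusted p = 0.00116. DNAJC4, another J-domain gene, had 11.1, 11.0 and 12.1 CPM in knockout libraries, against 14.6, 12.3 and 15.8 CPM in wild-type libraries. The highest knockout library came close to wild-type library 2, and the edgeR log2 fold change was -0.32 ± 0.10 (SE), with adjusted p = 0.0332. The exons of DNAJC4 overlap those of NUDT22 on the same strand, so its counts may hold reads of that gene.

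DNAJB14, DNAJC9 and DNAJC2 passed narrowly. DNAJB14, an ER membrane protein, had 41.4, 42.0 and 33.2 CPM in knockout libraries, against 34.9, 31.8 and 32.1 CPM in wild-type libraries. Knockout library 3 lay within the wild-type range, and the edgeR log2 fold change of 0.24 ± 0.08 (SE, adjusted p = 0.0391) was 0.12 with the GC correction, which ended the call (adjusted p = 0.209 by edgeR, within a range of 0.0036 to 0.234 over all alternatives). DNAJC9, a cochaperone of histones H3 and H4, averaged 75.4 ± 1.37 CPM in knockout and 67.9 ± 2.21 CPM in wild-type libraries (SD, n = 3 each), with adjusted p = 0.0403 by edgeR; its exons overlap DNAJC9-AS1 and FAM149B1 on the opposite strand and MRPS16 on the same strand. DNAJC2, the ribosome-bound partner of HSPA14, averaged 51.5 ± 2.17 CPM in knockout and 45.2 ± 4.22 CPM in wild-type libraries, with adjusted p = 0.0484 by edgeR. Its exons overlap PMPCB on the opposite strand. The DNAJC2 call was lost with DESeq2 (adjusted p = 0.0511), with edgeR without robust estimation (0.0510) and with the filter of 1 CPM (0.0501), and the DNAJB14 call with limma-voom (0.0543); over all alternatives the adjusted p of DNAJC2 reached 0.220. Without wild-type library 3 none of DNAJB14, DNAJC9, DNAJC2 and DNAJC4 passed, and DNAJC4 was also lost without wild-type library 1 and without knockout library 1 or 2. DNAJB14 was also lost without wild-type library 2 and without knockout library 1 or 2, and DNAJC9 and DNAJC2 also without wild-type library 2 and without each knockout library. Over the 6 fits that left out 1 library the log2 fold change ran from 0.17 to 0.34 for DNAJB14, from 0.12 to 0.17 for DNAJC9, from 0.13 to 0.26 for DNAJC2 and from -0.41 to -0.23 for DNAJC4.

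The other abundant J-domain genes did not pass. DNAJA3, of mitochondria, averaged 108 ± 3.83 CPM in knockout and 100 ± 5.39 CPM in wild-type libraries. It passed with the GC correction (edgeR log2 fold change 0.13, adjusted p = 0.0124, within a range of 0.0098 to 0.439 over all alternatives) and without wild-type library 3 (0.15, adjusted p = 0.0178 by edgeR). DNAJB6, which holds back polyglutamine aggregation, averaged 123 ± 3.70 CPM in knockout and 119 ± 2.64 CPM in wild-type libraries. DNAJC5, the cysteine string protein of secretory vesicles, averaged 201 ± 3.71 CPM in knockout and 200 ± 13.0 CPM in wild-type libraries, and DNAJC3, the ER inhibitor of PERK, averaged 192 ± 6.21 CPM in knockout and 181 ± 8.58 CPM in wild-type libraries (SD, n = 3 each). DNAJB2 had the lowest adjusted p among the J-domain genes that did not pass, 0.0616 by edgeR, with a log2 fold change of -0.18. DNAJC17, a splicing-associated J-domain protein, averaged 25.5 CPM in knockout and 28.8 CPM in wild-type libraries, with an edgeR adjusted p of 0.0881, and passed as lower without wild-type library 3.

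In mitochondria, HSPA9 and HSPE1 rose among 8 tested genes and none fell, beside 6.36% and 7.18% of all tested genes. The median log2 fold change was 0.10. At an unadjusted p under 0.05 edgeR found 4 higher and 0 lower, and no share of all genes was computed at that threshold. DESeq2 and limma-voom each called 2 higher and 0 lower. Of all tested genes DESeq2 called 6.23% higher and 6.66% lower, and limma-voom 6.33% and 6.87%. HSPE1, the HSP10 lid of the folding chamber (chromosome 2, 197499994 to 197503457, plus strand), had 239, 252 and 252 CPM in knockout libraries, against 227, 216 and 205 CPM in wild-type libraries. The groups were separate, and the edgeR log2 fold change was 0.20 ± 0.04 (SE), with adjusted p = 0.00219. HSPE1 shares exons with the readthrough HSPE1-MOB4 on its own strand and overlaps HSPD1 on the other, so its count is less certain than that of HSPA9. HSPA9, mortalin, the matrix HSP70 (chromosome 5, 138553756 to 138575724, minus strand), had 845, 861 and 881 CPM in knockout libraries, against 822, 795 and 734 CPM in wild-type libraries. All knockout libraries were higher, with wild-type library 3 the lowest, and the edgeR log2 fold change was 0.14 ± 0.04 (SE), with adjusted p = 0.0133. Its call was lost without knockout library 2 or 3, where adjusted p reached 0.0931 by edgeR, and the log2 fold change over the fits that left out 1 library ran from 0.09 to 0.17.

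HSPD1, the HSP60 barrel encoded head to head with HSPE1, had 1532, 1485 and 1491 CPM in knockout libraries, against 1478, 1440 and 1321 CPM in wild-type libraries. The groups did not overlap, but knockout library 2 and wild-type library 1 were close, and the edgeR log2 fold change of 0.09 ± 0.04 (SE) had an adjusted p of 0.09998. With the GC correction it passed (edgeR log2 fold change 0.07, adjusted p = 0.0453, within a range of 0.0131 to 0.315 over all alternatives), as it did without wild-type library 1 (0.12, adjusted p = 0.0131 by edgeR). Without wild-type library 3 its log2 fold change was 0.04 and did not pass.

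In the ER 14 genes were tested, of which DNAJB14 alone rose and none fell, beside 6.36% and 7.18% of all tested genes. The median log2 fold change was 0.04. At an unadjusted p under 0.05 edgeR found 3 higher and 0 lower. DESeq2 called 1 higher and 0 lower, beside 6.23% and 6.66% of all tested genes. Limma-voom called 0 higher and 0 lower, beside 6.33% and 6.87%. The groups overlapped for all 14, where 15.4% of all tested genes had separate groups with higher and 15.9% with lower knockout values. HSPA5, the ER lumenal HSP70 also called BiP, had 1924, 1889 and 1988 CPM in knockout libraries, against 1896, 1879 and 1802 CPM in wild-type libraries. Knockout library 2 lay below wild-type library 1, and the edgeR log2 fold change was 0.06 ± 0.03 (SE), with adjusted p = 0.239. HSP90B1, the ER HSP90 also called GRP94, averaged 1107 CPM in knockout and 1069 CPM in wild-type libraries, an edgeR log2 fold change of 0.05 with adjusted p = 0.595. The sign of this value was not stable: it was -0.01 with the GC correction, ran from -0.02 to 0.11 over the fits that left out 1 library, and passed as higher without wild-type library 1. With the GC correction DNAJB14 no longer passed and HSPA13, a microsome-associated HSP70, passed as lower, with a log2 fold change of -0.12 against -0.01 without the correction. Of 40 genes assigned to the cytosol 10 rose and 3 fell, with a median of 0.08. This group was broad and also took in the transcription factors HSF1 and HSF2, the histone cochaperone DNAJC9 and the splicing-associated DNAJC17. HSF2 is among those that fell and DNAJC9 among those that rose, so the counts are not of cytosolic chaperones alone. Of 9 genes of other sites 0 rose and 2 fell, with a median of -0.00. There edgeR found 0 higher and 2 lower at an unadjusted p under 0.05, and DESeq2 and limma-voom each called 0 higher and 2 lower. Beside these counts, edgeR called 6.36% of all tested genes higher and 7.18% lower. No share of all genes was computed at the unadjusted threshold. Whether compartments differ from each other was not tested.

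**Figure D2:**
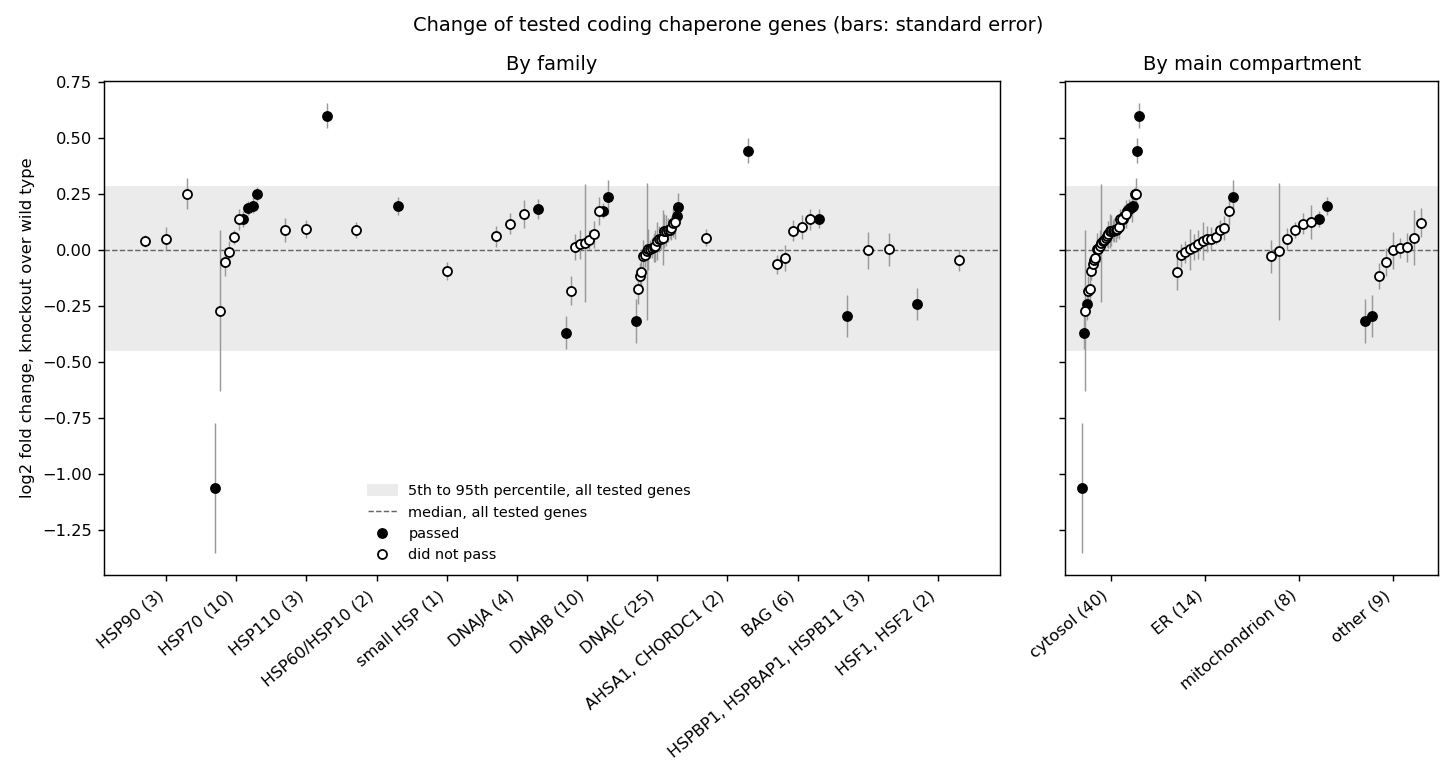
Log2 fold change of knockout over wild type (vertical axis) for the 71 tested coding members, grouped by family and by main compartment, with the number of genes in brackets. Filled circles passed the test, open circles did not, bars are standard errors, the grey band is the 5th to 95th percentile of all tested genes and the dashed line their median. HSPH1 at 0.60 and CHORDC1 at 0.44 lie above the band, and HSPA1L at -1.06 lies below it.

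The plot by family and compartment shows that HSPH1, CHORDC1 and HSPA1L alone lay outside the band that holds the middle of all tested genes. The remaining calls lay inside it, with small standard errors.

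BAG proteins release nucleotide from HSP70, and among 6 tested BAG genes BAG3 rose, beside 6.36% of all tested genes. BAG3, which pairs HSP70 with selective autophagy (chromosome 10, 119651370 to 119677819, plus strand), had 145, 141 and 147 CPM in knockout libraries, against 129, 130 and 134 CPM in wild-type libraries. The groups were separate, and the edgeR log2 fold change was 0.14 ± 0.04 (SE), with adjusted p = 0.0259. The call was lost without any 1 of the knockout libraries or without wild-type library 2, where adjusted p reached 0.119 by edgeR, while the log2 fold change stayed between 0.12 and 0.15. BAG2, which inhibits the ubiquitin ligase CHIP, averaged 102 CPM in knockout and 92.8 CPM in wild-type libraries without overlap, a log2 fold change of 0.14 with an edgeR adjusted p of 0.0529. It passed with DESeq2 and without wild-type library 1 or 3, and with the GC correction its log2 fold change was 0.04 (adjusted p = 0.540 by edgeR). BAG6, of the quality control of membrane proteins, averaged 237 ± 7.63 CPM in knockout and 248 ± 14.5 CPM in wild-type libraries (SD, n = 3 each) and did not pass.

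Transcripts of the heat shock transcription factors did not rise. HSF1 had 133, 133 and 132 CPM in knockout libraries, against 128, 135 and 147 CPM in wild-type libraries. The knockout values lay within the wild-type range, and the edgeR log2 fold change was -0.05 ± 0.05 (SE), with adjusted p = 0.565, and 0.05 with the GC correction. HSF2, which forms mixed trimers with HSF1 (chromosome 6, 122399546 to 122433119, plus strand), had 24.1, 25.4 and 27.8 CPM in knockout libraries, against 29.1, 32.2 and 30.2 CPM in wild-type libraries. The groups did not overlap, and the edgeR log2 fold change was -0.24 ± 0.07 (SE), with adjusted p = 0.0238. The HSF2 call was lost without knockout library 1 or 2 or wild-type library 2, where adjusted p reached 0.143 by edgeR, and its log2 fold change ran from -0.30 to -0.20. HSPBAP1, an HSPB1-associated protein of the HSPB-prefixed symbols, fell to 9.50, 9.92 and 9.32 CPM in knockout libraries, against 11.9, 11.5 and 11.9 CPM in wild-type libraries. These groups were separate, with an edgeR adjusted p of 0.0355 and a log2 fold change of -0.30, and the call was lost in each of the 6 fits that left out 1 library, where the log2 fold change ran from -0.33 to -0.28 and adjusted p reached 0.119. HSPBP1, a nucleotide exchange factor of HSP70, and HSPB11, an intraflagellar transport protein, had log2 fold changes of 0.00 and -0.00 and did not pass.

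Small heat shock proteins bind unfolding proteins without ATP, and only HSPB1 of 7 had enough counts for the test. It had 359, 361 and 362 CPM in knockout libraries, against 368, 373 and 416 CPM in wild-type libraries. The knockout libraries were nearly alike and all below the wild-type libraries, of which library 3 was the highest. The edgeR log2 fold change was -0.10 ± 0.04 (SE), with adjusted p = 0.116, and -0.00 with the GC correction. Without wild-type library 1 it passed as lower (-0.13, adjusted p = 0.0169 by edgeR), and without wild-type library 3 its log2 fold change was -0.04 (adjusted p = 0.372 by edgeR). HSPB2, HSPB3, HSPB7 and HSPB8 were listed at 0 in all 6 libraries, and HSPB6 and HSPB9 had at most 11 counts in a library. Outside this family DNAJB8, DNAJC15 and DNAJC5G, and the transcripts DNAJB5-DT and DNAJB8-AS1, were listed at 0 in all libraries. DNAJB13, DNAJC5B, HSPA12B, HSPA2, DNAJC27-AS1 and HSPB2-C11orf52 had counts too low for the test, at most 14 in a library. CANX and HYOU1, which most cells express, were also listed at 0, so a 0 in these tables does not show that a gene is silent. The tested noncoding or readthrough members, DNAJC25-GNG10, DNAJC3-DT and DNAJC9-AS1, did not pass.

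Levels of different genes can be set side by side only per kb of transcript, here the longest GENCODE transcript. On that scale HSP90AB1 was the highest member at 1149 CPM per kb in knockout and 1118 CPM per kb in wild-type libraries. HSPA8 followed at 997 CPM per kb in knockout and 839 CPM per kb in wild-type libraries, and HSP90AA1 came next at 848 CPM per kb in knockout and 713 CPM per kb in wild-type libraries. HSPD1, HSPA5 and HSP90B1 came after them, at 612, 495 and 365 CPM per kb in knockout and 576, 476 and 353 CPM per kb in wild-type libraries.

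Ratios of such levels within a library, computed for 9 pairs, show the shift between partners without a scaling between libraries. HSPH1 over HSPA4, an inducible against a constitutive HSP110, was 0.364, 0.348 and 0.353 in knockout libraries, against 0.258, 0.246 and 0.244 in wild-type libraries. HSPA8 over HSPA5, the cytosolic against the ER HSP70, was 2.01, 2.04 and 2.00 in knockout libraries, against 1.75, 1.79 and 1.75 in wild-type libraries. Both ratios were higher in every knockout library, with little spread within the groups, wild-type library 3 included. HSP90AA1 over HSP90AB1 was 0.753, 0.737 and 0.722 in knockout libraries, against 0.705, 0.630 and 0.577 in wild-type libraries. This ratio did not overlap between the groups, but wild-type libraries 1 and 3 differed more from each other than wild-type library 1 did from the knockout libraries. HSPE1 over HSPD1 was 0.404, 0.438 and 0.437 in knockout libraries, against 0.397, 0.388 and 0.401 in wild-type libraries, and these nearly touched.

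**Figure D3:**
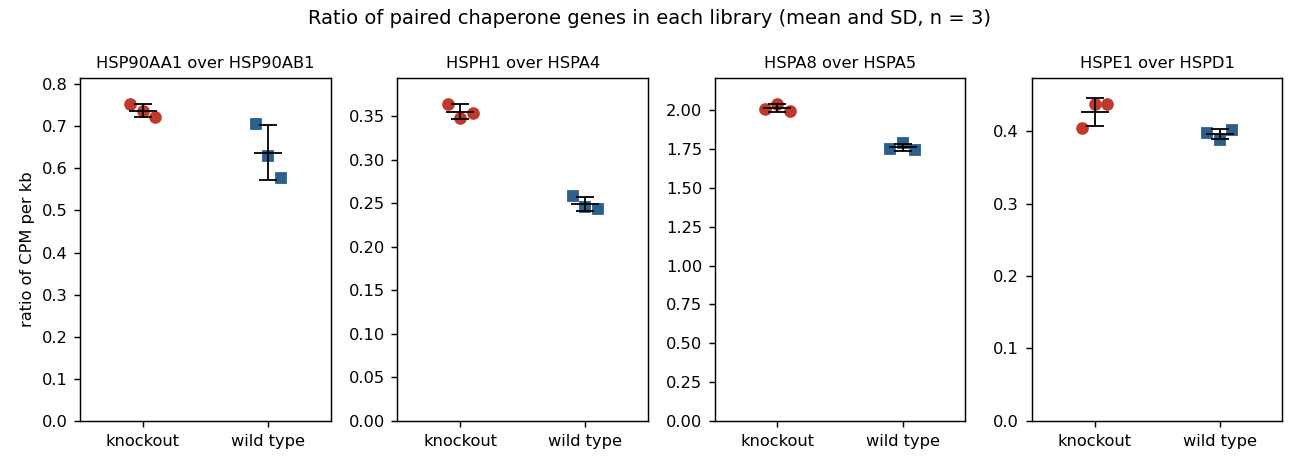
Ratio of the CPM per kb of paired genes in each library (vertical axes from 0), for knockout and wild-type libraries; bars are the mean and SD of 3 libraries. HSPH1 over HSPA4 averages 0.355 in knockout and 0.249 in wild-type libraries, and HSPA8 over HSPA5 2.02 in knockout and 1.76 in wild-type libraries, with no overlap.

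The plot of the ratios shows the wide spread of the wild-type libraries for HSP90AA1 over HSP90AB1. HSPA9 over HSPA8, the mitochondrial against the cytosolic HSP70, was lower in every knockout library, with a mean of 0.183 ± 0.002 in knockout and 0.198 ± 0.006 in wild-type libraries (SD, n = 3 each). HSPA1A over HSPA8, HSPA1B over HSPA8, DNAJB1 over DNAJA1 and HSF2 over HSF1 overlapped between the groups.

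The 3-unit heat shock element was present before the start of 2 of the 13 risen members, CHORDC1 and HSPA8, and of none of the 5 that fell. The other 5 members with it, DNAJB6, HSP90AA1, HSP90AB1, HSPA6 and HSPD1, did not pass, and the median log2 fold change of the 7 was 0.09, against 0.05 for the tested members without it. GAANNTTC stood before 16 tested members, of which 6 rose (CHORDC1, DNAJA1, DNAJB1, HSPA1A, HSPA1B and HSPA8) and 1 fell (HSPA1L), with a median of 0.15 against 0.05 without it. TTCNNGAA stood before 9 tested members, of which 2 rose and 0 fell, with a median of 0.09 against 0.05 without it. Beside these counts, edgeR called 6.36% of all tested genes higher and 7.18% lower. The share called among all genes with a motif was not computed. The windows of HSPA1L and HSPA1A overlap, since these genes start head to head, so 1 match may count for both. HSPA1A and HSPA1B can share reads, so their rises may not be separate. HSPH1, with the largest rise, had none of these motifs, and HSPA5 and HSP90B1, with the ER stress element, did not pass.

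**Figure D4:**
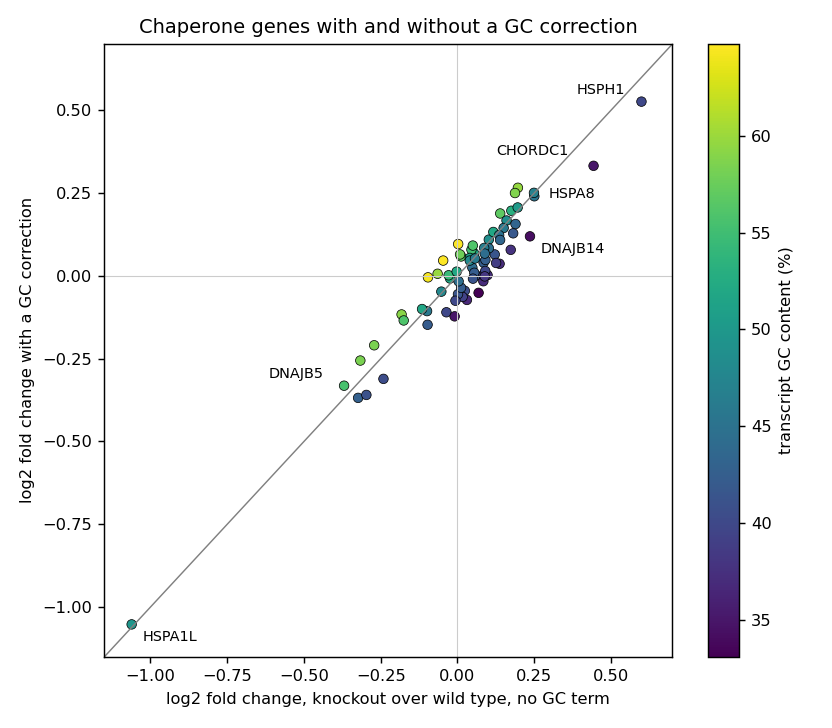
Log2 fold change of knockout over wild type of the 74 tested members without (horizontal axis) and with (vertical axis) a correction for transcript GC content, coloured by GC content; the diagonal marks equal values. GC-poor members such as CHORDC1 and DNAJB14 lie below the diagonal, GC-rich ones above it, and HSPH1 and HSPA8 keep values of 0.53 and 0.25 with the correction.

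The plot with and without the correction bears on wild-type library 3 and its tilt with GC. The risen members had a transcript GC of 34.3% to 59.7%, with a median of 45.9%. The 5 that fell had 40.5% to 58.4%, with a median of 49.7%. What part GC content has in these calls was not tested beyond the correction. With the correction 16 members rose and 6 fell, beside 9.51% and 9.42% of all tested genes. DNAJB14 was the call that was lost, DNAJA3, DNAJA4, HSPA14 and HSPD1 were gained as higher and HSPA13 as lower, and the other 17 calls kept their direction.

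Other genes of the chaperone system moved in both directions. Of 18 tested HSP90 cochaperones outside the member list, 3 rose and 2 fell, beside 6.36% and 7.18% of all tested genes. Their median log2 fold change was 0.04. PPID, a cyclophilin, averaged 88.0 ± 1.99 CPM in knockout and 78.3 ± 2.61 CPM in wild-type libraries (SD, n = 3 each), with adjusted p = 0.0176 by edgeR. NUDC averaged 488 ± 8.67 CPM in knockout and 443 ± 17.4 CPM in wild-type libraries, with adjusted p = 0.0104 by edgeR. STIP1 averaged 457 ± 5.63 CPM in knockout and 424 ± 12.2 CPM in wild-type libraries, with adjusted p = 0.0333 by edgeR. STIP1 is the HOP adaptor that passes clients between HSP70 and HSP90, and NUDC helps fold proteins of the dynein pathway. NUDCD3, a relative of NUDC, fell to 90.4 ± 2.90 CPM in knockout libraries, against 102 ± 4.43 CPM in wild-type libraries, with adjusted p = 0.0177 by edgeR. FKBP8, an immunophilin of mitochondrial membranes, fell to 198 ± 6.12 CPM in knockout libraries, against 220 ± 19.5 CPM in wild-type libraries, with adjusted p = 0.0392 by edgeR. With the GC correction 8 of the 18 rose and 1 fell, beside 9.51% and 9.42% of all tested genes, and FKBP8 no longer passed.

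Of 9 tested HSP70 cofactors and J-domain genes with other names, 2 rose and none fell, beside 6.36% and 7.18% of all tested genes. With the GC correction edgeR called 3 higher and 0 lower, beside 9.51% and 9.42% of all tested genes. Among them, DNLZ, the zinc-finger partner of HSPA9, averaged 22.0 ± 0.965 CPM in knockout and 18.4 ± 2.21 CPM in wild-type libraries (SD, n = 3 each), with adjusted p = 0.0446 by edgeR.

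Among 10 tested further targets or regulators of HSF1, 1 rose and 2 fell, beside 6.36% and 7.18% of all tested genes. UBB, a polyubiquitin gene, averaged 1479 ± 20.1 CPM in knockout and 1382 ± 30.0 CPM in wild-type libraries (SD, n = 3 each), with adjusted p = 0.0315 by edgeR. HSF4 averaged 3.20 CPM in knockout and 4.37 CPM in wild-type libraries, with adjusted p = 0.0475 by edgeR, and no longer passed with the GC correction.

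Of 15 tested ER folding genes ERO1A, the oxidase of protein disulfide isomerase, fell to 240 ± 9.64 CPM in knockout libraries, against 269 ± 14.0 CPM in wild-type libraries (SD, n = 3 each), with adjusted p = 0.00974 by edgeR, and none rose (2 higher and 3 lower by edgeR with the GC correction). Of 9 mitochondrial proteostasis genes CLPB, a disaggregase, rose and the protease LONP1 fell. Beside the counts of these 2 lists, edgeR called 6.36% of all tested genes higher and 7.18% lower. With the GC correction the shares were 9.51% and 9.42%. CLPB averaged 115 ± 5.11 CPM in knockout and 103 ± 6.89 CPM in wild-type libraries (SD, n = 3 each), with adjusted p = 0.0409 by edgeR. LONP1 averaged 177 ± 2.15 CPM in knockout and 195 ± 9.73 CPM in wild-type libraries, with adjusted p = 0.0277 by edgeR, and did not pass with the GC correction.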

How the data were processed

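Per the labels' protocols, RNA was extracted with TRIzol and sequenced as paired reads of 150 bp. The authors deposited 1 table of raw counts per library, whole numbers by gene symbol. The submitters' processing notes name hg38, TopHat, limma and edgeR without versions or roles. The counter, its annotation, strand setting and handling of multiply matching reads: not given in the sources used here.

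Groups came from sample titles. No 2 libraries of a group agreed within sampling noise, so each counted as 1 replicate. Replicate numbers did not pair the libraries. All genes were fitted in R 4.3.3 with edgeR 4.0.16: filterByExpr (minimum count 10, minimum total 15), TMM, robust quasi-likelihood test with group as its only term, Benjamini-Hochberg adjustment, threshold 0.05. The script was tested on simulated data. Symbols were matched to GENCODE 29. Pseudogenes were left out by the GENCODE or RefSeq biotype, or by the form of the symbol where both lacked one. The family and main compartment of each member were assigned from textbook knowledge. The members and the lists were chosen with earlier results of these data known. Named were all members that passed, HSF1, HSF2, the 2 most abundant of each family and up to 6 passing genes of each further list; other genes named were chosen after their values were seen. A few genes that the rule took are left out of the text and not reported here.

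Alternatives were RLE or library size scaling, DESeq2 1.42.0, limma-voom (limma 3.58.1), no robust estimation, each library left out, a replicate block, other filters (no filter beyond 1 count, or at least 1 CPM in 3 libraries), a GC correction (a spline of transcript GC with 5 degrees of freedom per library, as an offset; 95.9% of tested genes had a GC value), the GC correction with the block, and the summed counts of HSPA1A and HSPA1B.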

Additional observations from a re-analysis of the deposited data

How the results depend on the processing

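GSK3B kept its direction and its call under each alternative run, with log2 fold changes of -1.07 to -1.02 when 1 library was left out. Leaving out 1 library gave 361 to 1259 genes higher and 589 to 1272 lower in knockout cells (917 and 1034 in all), and 9 to 22 members higher and 1 to 4 lower (13 and 5 in all); fewer libraries enter these fits. The GC correction with the replicate block gave 1390 genes higher; the cause was not tested. Scaling by library size gave 649 genes higher and 1229 lower, and 15 members, with BAG3, DNAJB14, DNAJC2 and DNAJC9 lost and DNAJB2 gained.

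The replicate numbers did not pair the libraries (correlations of same-numbered deviations 0.07, -0.00 and 0.03, where library 1 alone correlated best with its own number); with the replicate block 22 members passed, the 18 and BAG2, DNAJB2, HSP90AA1 and HSPA14, and 1080 genes were higher and 1113 lower.

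Among members that did not pass, small log2 fold changes changed sign, of which some are given here. HSF1 (-0.05) came to 0.046 with the GC correction, 0.046 with that and the block, and between -0.097 and 0.0092 with 1 library left out, positive without wild-type library 3. BAG6 (-0.06) came to 0.0063 with the correction and 0.0059 with the block too, and HSPA4L (0.09) to -0.0016 and -0.00069. HSP90B1 (0.05) came to -0.0085 with the correction and between -0.022 and 0.11 with 1 library left out. DNAJC5 (0.01) came to -0.010 with library size scaling and between -0.030 and 0.063 with 1 library left out, negative without knockout library 1 or wild-type library 1 or 2. The cause was not tested. Log2 fold changes were recomputed and tallied for the members that passed, HSF1, HSF2 and the 2 most abundant of each family. Of these values 467 were counted as unchanged, 45 were no longer past the threshold, 20 newly passed and 11 were counted as reversed. Some small changes of sign stand among the 467, which is thus not a count of kept directions. Depth limits the low members: HSPA1L had 19 to 71 counts per library.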
